A study of Drosophila melanogaster with 12 samples.

Results

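*CG10467*, *CG10602*, *CG17109*, *Gip*, *CG9119* and *fok* are 5 enzyme or enzyme-like genes and 1 small-protein gene that lead the crystal cells of a single-cell RNA-seq survey of *Drosophila* larval blood, beside the prophenoloxidase genes *PPO1* and *PPO2*. They are 6 of the 10392 genes of the merged table of the series. They were selected on their unique molecular identifiers (UMIs, counts of single captured transcripts), which were high in the deposited crystal cell clusters CC1 and CC2 relative to the other clusters of the same library. Their level in these clusters against the rest is therefore given as a description without a test. Tests were run on what the choice did not use, namely wounding, the 48 hr libraries and the barcodes that the merged table leaves out. The choice looked at the clusters of each technology, so levels by technology are descriptions too.

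The hemocytes came from 14 libraries. Wounded larvae (4 libraries) were *Hml>EGFP* animals, in which the *Hml* driver labels mostly plasmatocytes, that received a needle wound 96 hr after the eggs were laid (AEL) and were bled 24 hr later. Unwounded larvae (4 libraries) were of the same genotype and age. In both groups 10X Chromium was used for replicates 1 and 2 and inDrops for replicates 3 and 4, and each inDrops sample held 1 wounded and 1 unwounded library that were told apart by their index. Wasp inf. 48 hr and wasp inf. 24 hr larvae (3 libraries each) were of the OreR strain, were infested with *Leptopilina boulardi* at 72 hr AEL, and their hemocytes went through Drop-seq, with no density gradient before it, unlike those of the wounded and unwounded larvae. The merged table holds 19458 cells of 11 libraries and none of the 48 hr libraries. The labels put the larvae at 96 hr AEL in the wasp inf. 24 hr libraries and at 128 hr AEL in the wasp inf. 48 hr libraries, whereas 72 hr and 48 hr add up to 120 hr AEL, and this difference could not be settled. Larvae were pooled for bleeding, and it is not given here whether the libraries of a group came from separate batches of larvae, so p-values measure the spread between libraries.

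Crystal cells are the hemocytes that carry prophenoloxidases, the enzymes that start melanization at wounds and around parasites once they are activated and released. The cells depend on the transcription factor Lozenge, encoded by *lz*, and rupture easily. *PPO1* and *PPO2* encode their main prophenoloxidases, which here serve as the scale of the crystal cell signal. The 6 genes have roles that are known mostly by protein family. *CG10467* belongs to the aldose 1-epimerases, which interconvert the ring forms of sugars such as galactose. *CG10602* resembles leukotriene A4 hydrolase of mammals, a zinc aminopeptidase. *CG17109* resembles aminoacylase 1 of mammals, which removes acyl groups from amino acids, and *Gip* is similar to hydroxypyruvate isomerases of bacteria. *CG9119* is the fly relative of the human gene *C11orf54*, an ester hydrolase-like protein, and *fok* (*fledgling of Klp38B*) encodes a small protein.

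In the Ensembl annotation of the Release 6 assembly, *CG10467* (FBgn0035679) is a single exon on the minus strand of chromosome arm 3L, from 6093204 to 6094747. *CG9119* (FBgn0035189) lies on the minus strand of 3L from 1203316 to 1204795, and *CG10602* (FBgn0032721) on the minus strand of 2L from 18855126 to 18859248. *fok* (FBgn0263773) spans 20079270 to 20085070 on the minus strand of 2L. *CG17109* (FBgn0039051) lies on the plus strand of 3R from 23095690 to 23097240, and *Gip* (FBgn0011770) is a single exon on the minus strand of X from 10328877 to 10329872. The genes thus lie on 3 autosomal arms and on X. The 3' end of *CG10467* shares 110 bases with *CG10469* on the same strand and *CG10602* shares 1221 bases with *mRpL13* on the same strand, so the split of UMIs within these pairs is uncertain. *CG17109*, *CG9119* and *fok* lie inside *Cow*, *mwh* and *neb*, and *Gip* shares 70 bases with *CG2909*, in each case on the opposite strand. *neb*, which was once named *Klp38B* and encodes a kinesin, is the gene after which *fok* is named. It had 6 and 7 UMIs in the crystal cell clusters of wounded replicates 1 and 2 and 4 and 1 UMIs in those of unwounded replicates 1 and 2, and its level of 6.7 to 20.2 CPM there lay beside 16.4 to 20.9 CPM in the other hemocytes.

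The label was checked against the data first. The merged table held 797 cells of CC1 and CC2, with 115, 101, 120 and 112 cells in wounded replicates 1 to 4, 60, 12, 48 and 31 in unwounded replicates 1 to 4, and 0, 48 and 150 in wasp inf. 24 hr replicates 1 to 3. In the 10X libraries nearly every such cell carried prophenoloxidase transcripts, as 113 of 115, 99 of 101, 59 of 60 and 12 of 12 cells had at least 3 UMIs of *PPO1* and *PPO2*. In wasp inf. 24 hr replicate 3 the deposited label went against this marker: 8 of its 150 crystal cell cluster cells had at least 3 such UMIs and 138 had none. *PPO1* and *PPO2* made up 12.8% to 16.3% of the UMIs of these clusters in the 10X libraries and 0.677% to 2.48% in the inDrops libraries. Pairs of 10X libraries shared 0 to 4 cell barcodes and pairs of inDrops libraries 6 to 44. Levels below are in CPM, the UMIs of a gene per 1000000 UMIs of the cells summed.

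In 10X crystal cells all 6 genes were at high levels. *CG10467* was at 10563 and 12712 CPM in the crystal cell clusters of wounded replicates 1 and 2 and at 7035 and 9344 CPM in those of unwounded replicates 1 and 2. All other hemocytes of the same libraries had 35.5 and 72.8 CPM (wounded) and 55.6 and 26.7 CPM (unwounded), so the clusters stood 127-fold to 350-fold above them. *fok* was at 18703 and 22413 CPM in wounded and 14849 and 15260 CPM in unwounded crystal cells, 82.4-fold to 1907-fold above the other hemocytes. The wide range for *fok* came from its level outside the clusters, which was 180 CPM in unwounded replicate 1 and 8.0 CPM in unwounded replicate 2.

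*CG9119* was at 3018 and 2893 CPM in wounded and 2166 and 1938 CPM in unwounded 10X crystal cells, 96.6-fold to 2664-fold above the other hemocytes. *Gip* was at 1684 and 2414 CPM in wounded and 1665 and 3120 CPM in unwounded crystal cells, 40.4-fold to 59.3-fold above the rest. For these genes and for *fok* the lowest of the 4 libraries was an unwounded one, and the tests of wounding are given further on. *CG17109* was at 1307 and 1299 CPM in wounded and 860.3 and 1674 CPM in unwounded crystal cells, 83.5-fold to 690.2-fold above the rest. *CG10602* was at 1254 and 1626 CPM in wounded and 1275 and 1703 CPM in unwounded crystal cells and 15.3-fold to 25.4-fold above the rest, the smallest ratio of the 6 genes, since the other hemocytes held 66.9 to 83.4 CPM of it. Of all UMIs of a gene in a 10X library, the crystal cell clusters held 92.0% to 97.2% for *CG10467*, 93.6% to 98.5% for *fok*, 94.5% to 98.9% for *CG9119*, 66.2% to 87.7% for *Gip* and 45.7% to 73.0% for *CG10602*.

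**Figure D1:**
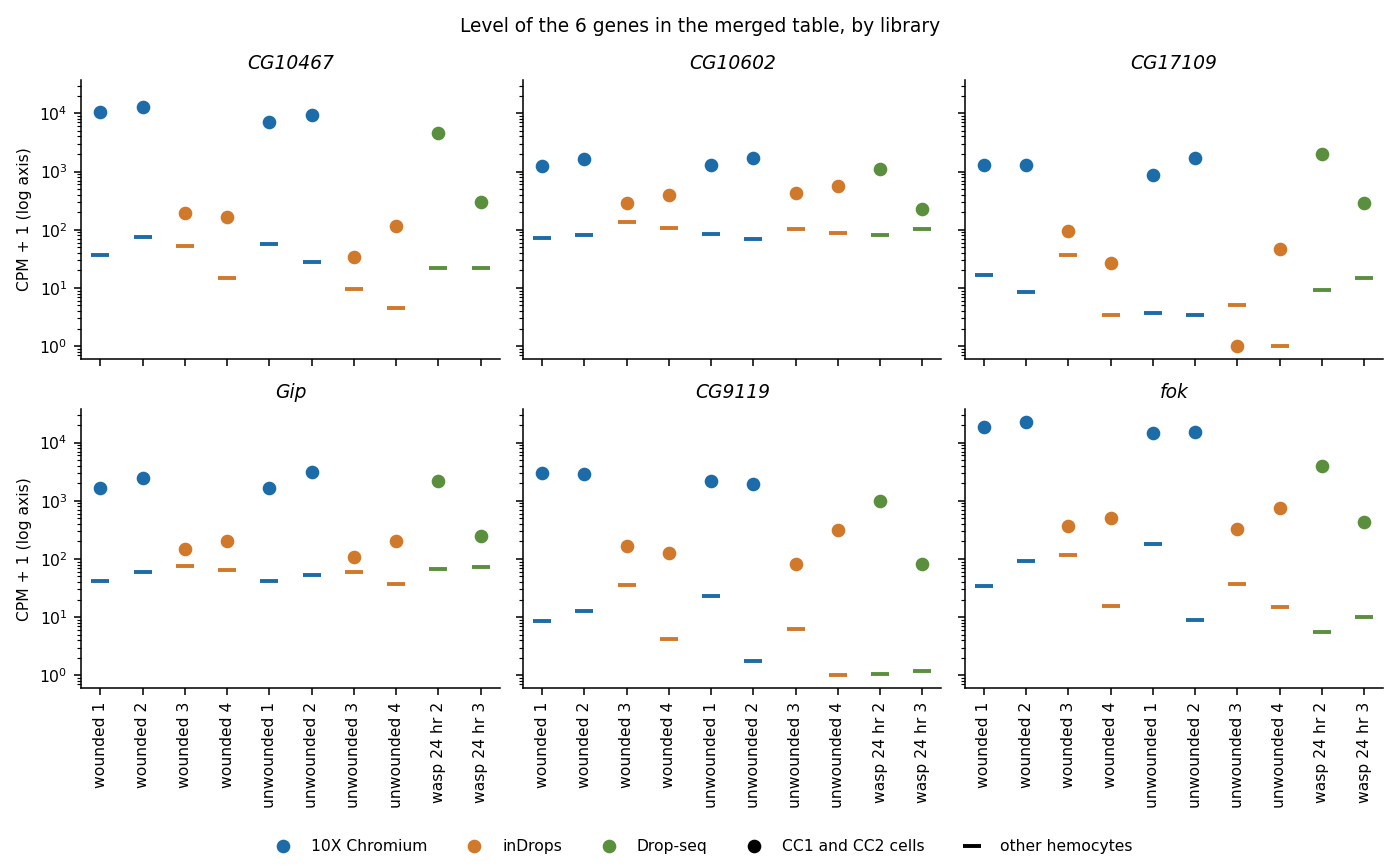
Level of each of the 6 genes per library, in CPM on a log axis, in the crystal cell clusters CC1 and CC2 and in all other hemocytes, with 1 point per library and class, colored by technology. The 10X points of *CG10467* lie between 7035 and 12712 CPM in the clusters, while its inDrops points lie between 32.4 and 195 CPM.

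Single cells showed the same genes together. Of the 10X crystal cell cluster cells, 81.7% to 91.7% per library had a UMI of *CG10467*, 80.9% to 95% of *fok*, 71.3% to 83.3% of *CG9119*, 77.4% to 91.7% of *CG10602*, 73.9% to 91.7% of *Gip* and 32.2% to 52.5% of *CG17109*. In plasmatocyte clusters, taken as the background, the shares were 4.52% to 18.5% for *CG10467*, 3.67% to 18.9% for *fok*, 0.441% to 2.42% for *CG9119* and 0.312% to 2.26% for *CG17109*. They were highest for *CG10602*, at 11.2% to 25.4%, and 3.90% to 21.9% for *Gip*. Median depth per 10X library was 2395 to 10014 UMIs in crystal cell cluster cells and 1104 to 4283 UMIs in the other hemocytes. The shares were therefore also taken after thinning to 1000 UMIs, over the cells that had at least that many. These were 12 to 115 crystal cell cluster cells and 339 to 2012 plasmatocytes per 10X library. After thinning, 79.1% to 84.5% of crystal cell cluster cells against 3.08% to 5.34% of plasmatocytes had a UMI of *CG10467*, and 16.5% to 29.3% against 0.147% to 0.441% had one of *CG17109*. All 6 genes were found together in 31.3% and 50.5% of the crystal cell cluster cells of wounded replicates 1 and 2 and in 30% and 50% of those of unwounded replicates 1 and 2.

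CC2 carried nearly all of the signal. CC2 was the cluster with the highest level in 10 of 11 libraries for 5 of the genes and in 9 of 11 for *CG17109*, and of 84780 UMIs of the 6 genes in crystal cell clusters, 83826 lay in CC2. In wounded replicates 1 and 2, the only 10X libraries with at least 10 cells in each of the clusters, CC2 held 13408 and 14383 CPM of *CG10467*, against 473 and 701 CPM in CC1. The ratio of CC2 over CC1 in these libraries was 20.5 and 28.3 for *CG10467*, 12.68 and 12.98 for *fok*, between 17.1 and 37.9 for *CG9119*, between 8.58 and 10.4 for *Gip* and between 6.51 and 6.99 for *CG10602*. *CG17109* had 829 and 1348 UMIs in CC2 and 0 and 2 UMIs in CC1, a difference of at least 77.9-fold in wounded replicate 1 when CC1 is given the 3 UMIs that a count of 0 allows. *lz* did not follow this split, as CC1 of the same libraries held 315 to 339 CPM of it, within the range of 314 to 366 CPM over the crystal cell clusters of the 10X libraries.

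In the 10X libraries the members followed the prophenoloxidase content of the cells in a graded way. For 272 10X barcodes with at least 2% of their UMIs from *PPO1* and *PPO2* (PPO-rich barcodes, with at least 500 UMIs, 200 genes and at most 30% mitochondrial UMIs), levels were taken relative to the UMIs of all genes but the prophenoloxidases. *CG10467* stood at 784 CPM in barcodes with a prophenoloxidase share of 2 to 5%, 4206 CPM at 5 to 10%, 10513 CPM at 10 to 20% and 30571 CPM above 20%. *CG17109* went through 41 CPM, 441 CPM, 1127 CPM and 3785 CPM over the same steps. *CG10602* was the flattest, with 433 CPM in the lowest step and 2930 CPM in the highest. Across the single cells of CC1 and CC2 in the 3 larger 10X libraries, Spearman's rho between the level of a gene and the prophenoloxidase share was 0.91 to 0.94 for *CG10467* and 0.87 to 0.92 for *fok* (60 to 115 cells a library). It was 0.36 to 0.68 for *CG17109*. In the clusters of wounded replicates 3 and 4 (inDrops) it was lower, from −0.08 to 0.36 and from 0.23 to 0.66 over the 6 genes, and in wasp inf. 24 hr replicate 3 (Drop-seq) it was 0.22 to 0.59. These cells share a library, and a cell's depth enters both measures, so the values are descriptions.

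**Figure D2:**
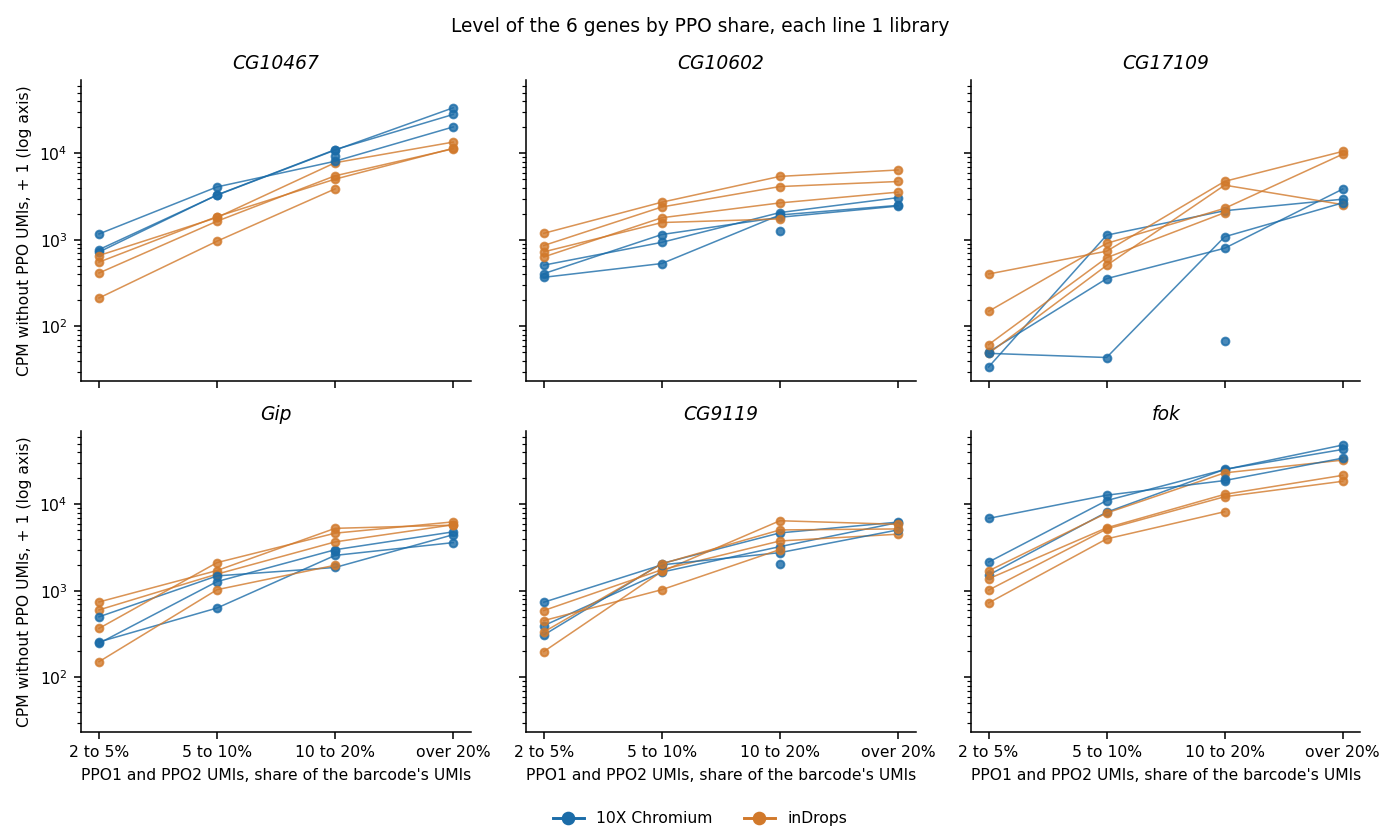
Level of each gene (CPM without the UMIs of *PPO1* and *PPO2*, log axis) in PPO-rich barcodes binned by the share of their UMIs that came from *PPO1* and *PPO2* (2 to 5%, 5 to 10%, 10 to 20% and above 20%), per library for bins of at least 5 barcodes and colored by technology. Over all 10X barcodes each gene is higher in each bin than in the one below it, with *CG10467* at 784 CPM in the lowest and 30571 CPM in the highest, and over all inDrops barcodes so are 5 of the genes, while *CG9119* is at 5280 CPM in the 10 to 20% bin and at 5124 CPM above 20%.

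The inDrops crystal cell clusters of the merged table looked different. *CG10467* had 195 and 161 CPM in wounded replicates 3 and 4 and 32.4 and 113 CPM in unwounded replicates 3 and 4, and the unwounded values rest on 4 and 5 UMIs. *fok* had 371 and 501 CPM in these wounded libraries and 324 and 748 CPM in the unwounded ones. *CG17109* had 29 and 9 UMIs in wounded and 0 and 2 UMIs in unwounded replicates 3 and 4. Over the 4 libraries of a technology, *CG10467* averaged 9913 ± 2371 CPM in 10X crystal cell clusters and 126 ± 71 CPM in inDrops ones (SD, n = 4 each), *CG9119* 2504 ± 532 and 172 ± 103 CPM, and *CG10602* 1464 ± 233 and 415 ± 116 CPM. In edgeR's fit of the summed UMIs, with wounding as a covariate, 17.7% of 2619 genes were called higher with 10X. The 6 members were among them, from which nothing is read, since the choice used these values. Their log2 fold change was 7.01 ± 0.40 (SE) for *CG10467*, 5.80 ± 0.39 for *fok*, 5.60 ± 0.55 for *CG17109*, 4.59 ± 0.41 for *CG9119*, 4.35 ± 0.37 for *Gip* and 2.44 ± 0.31 for *CG10602*. The overlapping *CG10469* had 142 and 140 UMIs in wounded and 29 and 23 UMIs in unwounded inDrops clusters. *CG10467* had fewer there, 61, 56, 4 and 5 UMIs. In 10X clusters *CG10469* had 778 and 1712 UMIs (wounded) and 339 and 172 UMIs (unwounded), against 6699, 13211, 1390 and 1273 of *CG10467*. The part of the split between these 2 genes in the difference of *CG10467* was not tested.

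Most of the inDrops UMIs of these genes were in barcodes that the merged table does not hold. Of the 59494 UMIs of the 6 genes in the 4 inDrops matrices, 53444 (89.8%) were in barcodes outside the merged table, against 254 of 83528 (0.304%) in the 10X matrices. Per library the share was 89.99% and 83.8% in wounded replicates 3 and 4 and 93.4% and 83.5% in unwounded replicates 3 and 4. All 4 inDrops libraries were therefore far above all 4 10X libraries, whose highest share was 1.17%. PPO-rich barcodes held 48632 of the inDrops UMIs outside the table. The inDrops matrices had 550 PPO-rich barcodes, of which 469 (85.3%) were outside the merged table, while the 10X matrices had 272, of which 2 were outside.

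Many of these barcodes had a low complexity. The novelty score is the log10 of the number of genes detected divided by the log10 of the UMIs of a barcode, and it is low where few genes take many UMIs. No inDrops cell of the merged table had a score under 0.85, while 630 10X cells had one. Of the 469 inDrops PPO-rich barcodes outside the table, 411 (87.6%) had a score under 0.85, which were 128 of 132 and 109 of 139 in wounded replicates 3 and 4 and 147 of 151 and 27 of 47 in unwounded replicates 3 and 4. The inDrops cells of the merged table also had at least 401 to 650 genes and at most 18.04% to 24.98% mitochondrial UMIs per library, so the score was not the only measure with a limit there. The same held for the 10X crystal cells that were kept: 75 of 115 and 89 of 101 in wounded replicates 1 and 2, and 46 of 60 and 12 of 12 in unwounded replicates 1 and 2, had a score under 0.85, in total 77.1%, against 7.05% of the other 10X cells. Per library the share of these other cells was 2.39% and 9.94% (wounded) and 0.423% and 18.9% (unwounded). Their median depth was 1876, 3563, 1104 and 4283 UMIs in the same order. The part of depth in the shares was not tested. Within 10X the genes sat in the cells with low scores. In wounded replicate 1, *CG10467* was at 12734 CPM in crystal cell cluster cells with a score under 0.85 and at 607 CPM in those with a higher score, in wounded replicate 2 at 13219 and 268 CPM, and in unwounded replicate 1 at 8074 and 1259 CPM.

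The PPO-rich barcodes outside the table had the marks of crystal cells. The transcripts of *lz*, *peb*, *klu* and *E(spl)m3-HLH*, crystal cell regulators and markers that did not define the class, summed to 1312 to 1718 CPM in them, to 1238 to 1398 CPM in PPO-rich 10X barcodes, and to 31.9 to 116 CPM in the remaining inDrops barcodes outside the table. All 4 of these markers had UMIs in each inDrops library. Plasmatocyte markers (7 genes) summed to 8134 to 16373 CPM in the PPO-rich barcodes outside the table and to 6516 to 30119 CPM in the remaining ones, and lamellocyte markers (5 genes) to 68.9 to 179 CPM and 299 to 15617 CPM. The part of free RNA or of more than 1 cell per barcode in these levels was not tested.

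In these barcodes the members were far above their level in the PPO-rich barcodes inside the table. *CG10467* was at 4213 and 3005 CPM in the PPO-rich barcodes outside the table in wounded replicates 3 and 4 and at 3215 and 1481 CPM in unwounded replicates 3 and 4, whereas the PPO-rich barcodes inside the table had 484, 382, 86.3 and 174 CPM in the same order. *CG9119* was at 3384, 2211, 2807 and 1291 CPM outside and at 256, 363, 259 and 479 CPM inside. *Gip* was at 2996, 2195, 2760 and 999 CPM outside and at 399, 344, 144 and 218 CPM inside. For each of these genes the 4 values outside were all above the 4 values inside. *fok* was at 13180, 7456, 7253 and 3925 CPM outside, and *CG17109* at 2003, 1624, 2616 and 758 CPM. The inside class held 12 and 34 barcodes in wounded replicates 3 and 4 and 16 and 19 in unwounded replicates 3 and 4. All of these had a novelty score of at least 0.85, and the score is low where few genes take many UMIs. Their median depth was 2823 and 2894 UMIs in the wounded libraries, against 5238.5 and 3417 UMIs outside. The part of the score and of depth in the difference was not tested.

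The set outside the merged table took no part in the choice of the genes, so it allowed a test of the pattern itself. PPO-rich barcodes were compared with all other barcodes outside the table that passed the same depth limits, per inDrops library and with the library as a block. Of 5419 genes tested, 13.3% were called higher, and all 6 members were among them (edgeR quasi-likelihood test, Benjamini-Hochberg adjusted p of 3.77e-11 or less). *CG17109* had the largest log2 difference at 8.37 ± 0.52 (SE), followed by *fok* at 8.13 ± 0.31, *CG9119* at 8.01 ± 0.35 and *CG10467* at 7.77 ± 0.35. The differences of *Gip* at 6.05 ± 0.32 and *CG10602* at 4.92 ± 0.29 were smaller, since the other barcodes held 40.5 to 69.4 CPM of *Gip* and 96.7 to 147 CPM of *CG10602*. The calls held when any of the 4 libraries was left out.

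**Figure D3:**
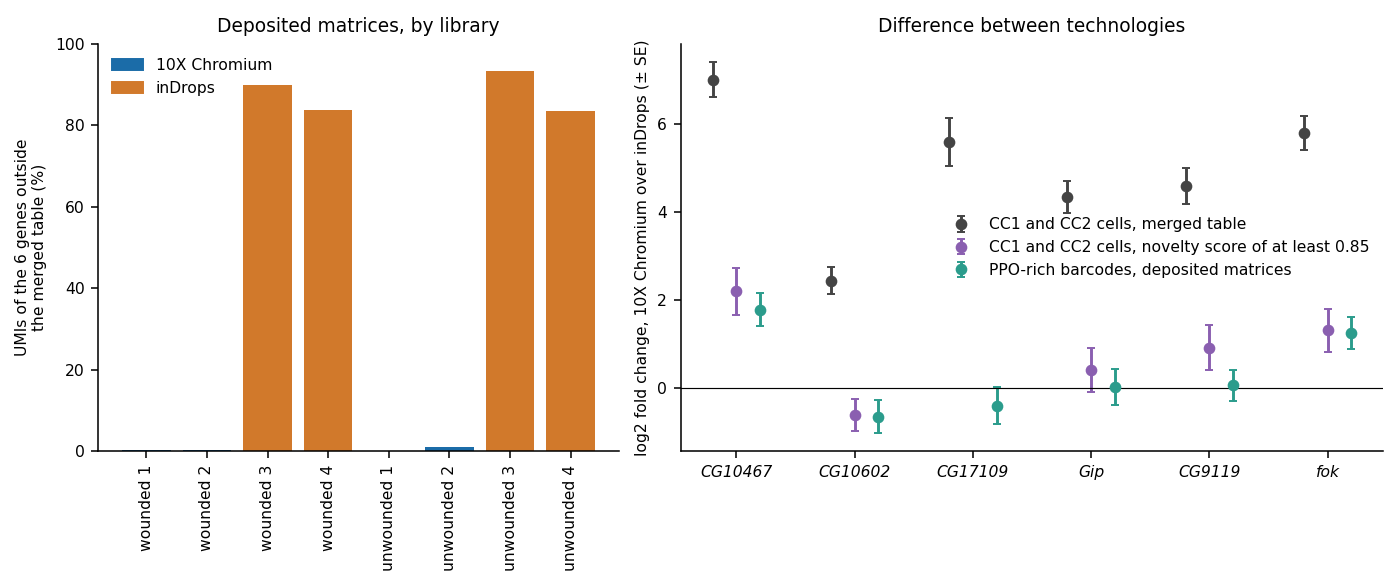
Share of the members' UMIs that lie in barcodes outside the merged table, in percent per library, and the log2 difference of each gene between 10X and inDrops for the deposited crystal cell clusters, for PPO-rich barcodes of the deposited matrices, and for cluster cells with a novelty score of at least 0.85 (error bars are SE, and *CG17109* did not pass the filter on low counts in the last set). The inDrops bars stand between 83.5% and 93.4%, and the difference of *CG10467* is 7.01 for the deposited clusters and 1.77 for PPO-rich barcodes.

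With all PPO-rich barcodes of both technologies, in the merged table or not, the technologies came closer. *CG10467* was at 10562 and 12475 CPM in wounded and 7212 and 9666 CPM in unwounded 10X libraries, and at 4030 and 2558 CPM in wounded and 3097 and 1111 CPM in unwounded inDrops libraries, without overlap between the technologies. *Gip* was at 1698 to 3220 CPM with 10X and at 778 to 2869 CPM with inDrops, and *CG10602* at 1266 to 1762 CPM with 10X and at 1185 to 3316 CPM with inDrops, so that these ranges overlapped. Of the 272 10X barcodes, 270 are in the merged table that the choice used, so the differences are given without a test. *CG10467* was higher with 10X by 1.77 ± 0.37 on the log2 scale (SE) and *fok* by 1.24 ± 0.36. The other 4 genes had log2 differences of 0.06 for *CG9119* (95% interval −0.63 to 0.75), 0.01 for *Gip* (−0.79 to 0.82), −0.41 for *CG17109* (−1.24 to 0.41) and −0.66 for *CG10602* (−1.39 to 0.06). The median prophenoloxidase share of these barcodes was 12.35% to 17.5% per library with 10X and 6.15% to 8.92% with inDrops. The part of this share in the differences was not tested, nor, for *CG10467*, that of the split of UMIs with *CG10469*. In the 10 to 20% bin (CPM without the prophenoloxidases), *CG10602* was at 1948 with 10X and 4250 with inDrops. *CG17109* was at 1127 and 4011, *Gip* at 2755 and 4640, and *CG9119* at 3480 and 5280. *CG10467* at 10513 and 6214 and *fok* at 24238 and 16393 were higher with 10X. When instead only cluster cells with a score of at least 0.85 were compared in both technologies, the difference was 2.20 ± 0.54 for *CG10467*, 1.301 for *fok*, 0.91 for *CG9119*, 0.41 for *Gip* and −0.62 for *CG10602*. The 10X side rests on 40 and 12 cells of wounded replicates 1 and 2 and 14 cells of unwounded replicate 1. They held 69, 11 and 38 UMIs of *CG10467*. All cluster cells of unwounded replicate 2 had a lower score.

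**Figure D4:**
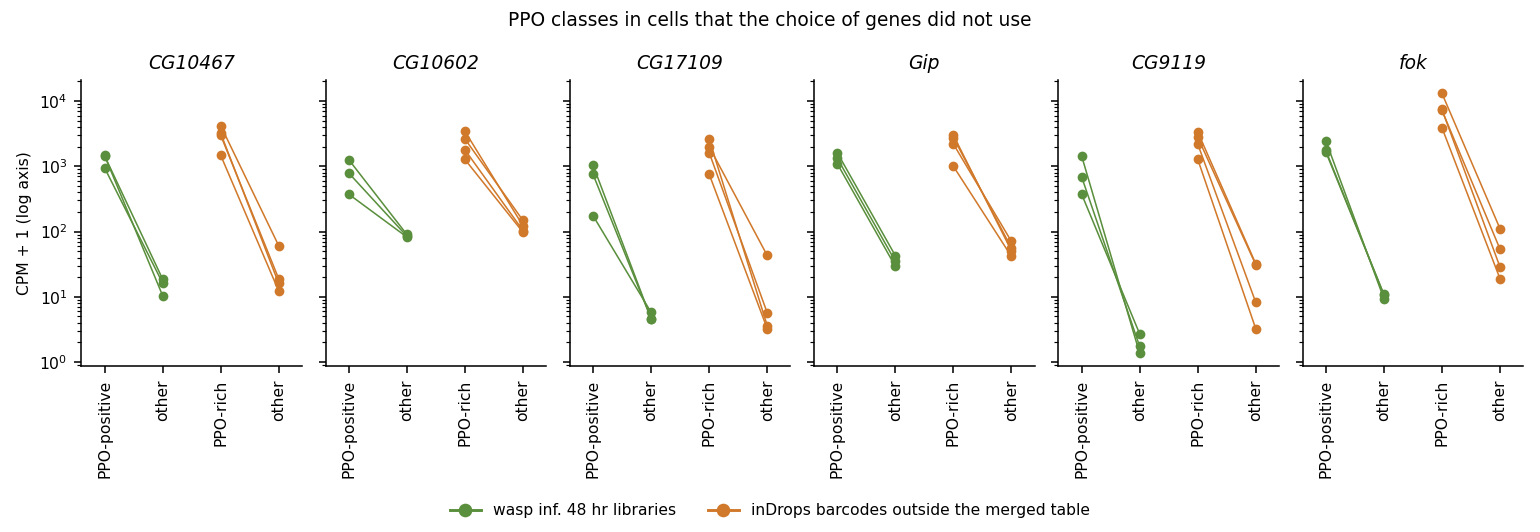
Levels of the 6 genes (CPM, log axis) in cells that took no part in their choice, with 1 point per library: PPO-rich barcodes and other barcodes outside the merged table in the inDrops libraries, and PPO-positive and other cells of the wasp inf. 48 hr libraries. In every library and for every gene the prophenoloxidase-bearing class lies above the other one.

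The wasp inf. 48 hr libraries were the second set that the choice did not use. Cells with at least 3 UMIs of *PPO1* and *PPO2* (PPO-positive cells) numbered 30 of 1867, 21 of 2055 and 24 of 3113 in replicates 1 to 3. *CG10467* was at 951, 1456 and 1466 CPM in PPO-positive cells, against 15.3, 17.7 and 9.5 CPM in the other cells. *CG9119* was at 377, 696 and 1462 CPM, against 1.7, 0.7 and 0.4 CPM. *Gip* was at 1332, 1097 and 1616 CPM, against 34.0, 28.2 and 41.7 CPM. No gene had a PPO-positive value within the range of the other cells. *CG17109* was at 174, 753 and 1040 CPM against 4.8, 3.6 and 3.6 CPM, *CG10602* at 787, 373 and 1262 CPM against 84.0, 81.5 and 89.2 CPM, and *fok* at 2473, 1667 and 1752 CPM against 8.4, 9.9 and 9.8 CPM.

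All 6 genes were called higher in the PPO-positive cells, where 3.87% of 7710 genes were (edgeR quasi-likelihood test with the library as a block, adjusted p of 8.30e-10 or less). The log2 difference was 9.67 ± 0.46 (SE) for *CG9119*, 7.59 ± 0.18 for *fok*, 7.02 ± 0.39 for *CG17109*, 6.43 ± 0.22 for *CG10467*, 5.18 ± 0.15 for *Gip* and 3.04 ± 0.23 for *CG10602*. The calls held in every alternative tried. The signal came from cells with many prophenoloxidase UMIs. In the 44 cells with at least 20 such UMIs *fok* was at 2981 to 4387 CPM, whereas in the 31 cells with 3 to 19 it was at 0 to 53.8 CPM, and in cells with none at 7.97 to 9.90 CPM. The PPO-positive cells also carried lamellocyte markers, whose 5 measured genes summed to 7946 to 10871 CPM in them and to 21617 to 26603 CPM in the other cells of the same libraries. The part of lamellocyte RNA or of mixed cells in the levels was not tested.

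The wounding comparison asked whether crystal cells of injured larvae differ in these genes. In the deposited clusters no member was called, where 0.0764% of 2619 genes were. *CG10467* had the largest difference, 0.92 ± 0.34 on the log2 scale (SE, unadjusted p = 0.0152 by edgeR's quasi-likelihood test, adjusted p = 0.999), and the others lay between −0.24 and 0.54. The replicate numbers were taken to pair the libraries, since same-numbered libraries deviated together in both technologies (correlation 0.43 with 10X and 0.24 with inDrops, 1 value for the 2 pairs of a technology), and with the replicate number as a block *CG10467* was still not called (0.86 ± 0.25, adjusted p = 0.0900). Of all genes, 31 (0.989%) were called with the block and 2 without. In the inDrops libraries these sums leave out most UMIs of the members, as given above, so the comparison was also made over PPO-rich barcodes.

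Among PPO-rich barcodes *fok* was at 18675, 22071, 12572 and 6422 CPM in wounded replicates 1 to 4, against 15739, 15786, 7013 and 3147 CPM in unwounded replicates 1 to 4. The wounded library was the higher one in each of the 4 pairs, and the ranges of the groups overlapped because the technologies differ. *CG10467* was at 10562, 12475, 4030 and 2558 CPM in wounded replicates, against 7212, 9666, 3097 and 1111 CPM in unwounded replicates. *CG9119* was at 3047, 2864, 3231 and 1896 CPM in wounded replicates, against 2273, 2005, 2711 and 1061 CPM in unwounded replicates. These too were higher in the wounded library of every pair. *CG10602*, *Gip* and *CG17109* were at 1266 to 3316, 1698 to 2869 and 1281 to 1908 CPM in wounded libraries, against 1185 to 2572, 778 to 3220 and 568 to 2517 CPM in unwounded ones.

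With the replicate block, 0.187% of 4279 genes were called higher in PPO-rich barcodes of wounded larvae (31 genes called in all), and *fok* and *CG10467* were among them. *fok* was higher by 0.75 ± 0.15 on the log2 scale (SE, 4 pairs, edgeR adjusted p = 0.00676) and *CG10467* by 0.71 ± 0.16 (edgeR adjusted p = 0.0270). *CG9119* differed by 0.60 ± 0.17 and did not pass (edgeR adjusted p = 0.162). *CG17109* at 0.33, *Gip* at 0.29 and *CG10602* at 0.26 did not pass either, nor did *PPO1* at 0.38 (95% interval 0.12 to 0.64) and *PPO2* at 0.27 (0.03 to 0.51). *PPO1* and *PPO2* set this class, so their values are descriptions. The 2 calls rest on the block, for which same-numbered libraries correlated at 0.357 with 10X and 0.364 with inDrops, and on single pairs. Without the block no member was called (3 genes called, 0.0796%), with log2 differences of 0.71 for *fok* and 0.61 for *CG10467*. Leaving out 1 pair at a time gave adjusted p-values of 0.00177, 0.0488, 0.00623 and 0.123 for *fok* and of 0.0448, 0.109, 0.00258 and 0.303 for *CG10467* (without pairs 1 to 4). DESeq2 with the same block gave an adjusted p of 0.0308 for *fok* and 0.0478 for *CG10467*. The median depth of PPO-rich barcodes was 5856, 10843, 5008 and 3294 UMIs in wounded replicates and 2383, 9006, 5137 and 1016.5 UMIs in unwounded replicates, and the part of depth in the difference was not tested. No member was called for a difference in the wounding effect between the technologies (interaction term, adjusted p of 0.999 or more). The SE of this term was 0.78 to 0.90 in PPO-rich barcodes, above each member's wounding effect there. A difference as large as these effects could therefore not be seen.

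Outside the crystal cell clusters the members differed in how common they were. The clusters held 3752 of the 10447 UMIs of *CG10602* in the merged table and 5292 of the 9761 UMIs of *Gip*, against 41970 of 44341 for *fok*, and *CG10602* had a UMI in 8.68% to 69.7% of the other hemocytes per library. Over all other hemocytes no member was called for wounding without the block, where 0.357% of 7571 genes were. With the replicate block, 1.58% of 8421 genes were called higher in wounded libraries and *CG17109* was one of them, by 2.55 ± 0.33 on the log2 scale (SE, edgeR adjusted p = 0.000264). It had 85, 66, 171 and 18 UMIs in wounded and 3, 10, 24 and 0 UMIs in unwounded replicates 1 to 4. In wounded replicate 1, 71 of the 85 UMIs were in 2 cells, which had a median of 521.5 prophenoloxidase UMIs. A prophenoloxidase UMI was in 38.4%, 82.1%, 85.7% and 33.0% of the other hemocytes in wounded replicates 1 to 4. The unwounded replicates had 35.4%, 33.6%, 42.6% and 6.72%. The part of crystal cell RNA in the difference of *CG17109* was not tested. The call was lost without the pair of replicates 3 (adjusted p = 0.109), and in cells with no prophenoloxidase UMI *CG17109* did not pass the filter on low counts. In those cells *CG9119* was called with the block (2.69 ± 0.62, edgeR adjusted p = 0.0322), where 0.942% of genes were called higher. It rests on 7, 7, 20 and 7 UMIs in wounded and 2, 0, 14 and 0 UMIs in unwounded replicates 1 to 4. In replicates 1 these were of 2938138 and 595624 UMIs in all, so that pair was lower in the wounded library. Without pair 4 that call was lost (adjusted p = 0.0545), and without pair 2 or pair 3 the gene did not pass the filter. The difference between the wounding effects in crystal cell clusters and in other hemocytes was called for no gene of 6728 by edgeR's quasi-likelihood test, where 264 had an unadjusted p under 0.05 and DESeq2 called 3.

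The wasp inf. 24 hr libraries differ from the unwounded ones in technology, strain, age, cell isolation and annotation as well as in infestation, and these cannot be told apart. In their crystal cell clusters *CG10467* was at 4636 CPM in replicate 2 and 300.2 CPM in replicate 3, *Gip* at 2209 and 244 CPM, *CG17109* at 1982 and 282 CPM, and *fok* at 3872 and 426 CPM. Replicate 3, in which 138 of the 150 cells had no prophenoloxidase UMI, was the lower one for every member. No member was called against unwounded larvae, where 5.64% of 2003 genes were. Over PPO-positive cells, cut without the clusters, replicates 2 and 3 were closer: *CG10467* was at 5416 and 2797 CPM, *fok* at 4539 and 4211 CPM, and *CG17109* at 2322 and 2616 CPM. Replicate 1, with 204 cells, had no PPO-positive cell, which allows a share of up to 1.47% (3 cells, counting error only).

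Time after infestation was compared within Drop-seq, 48 hr over 24 hr. Over all hemocytes 15.9% of 7943 genes were called lower at 48 hr, and *CG17109* was the one member among them (−1.56 ± 0.48 on the log2 scale, SE, edgeR adjusted p = 0.0420). That call was lost without 5 of the 6 libraries, taken one at a time (adjusted p of 0.060 to 0.137), and held without 24 hr replicate 1 (adjusted p = 0.00878), where *Gip* was also called lower (adjusted p = 0.0201). In such sums fewer crystal cells and less RNA per crystal cell cannot be told apart. The 24 hr libraries took part in the choice of the genes, so nothing is read from these calls of *CG17109* and *Gip*. Over PPO-positive cells alone, 48 hr replicates 1 to 3 were compared with 24 hr replicates 2 and 3, of which the 24 hr libraries took part in the choice of the genes. *CG10467* was at 951, 1456 and 1466 CPM at 48 hr, against 5416 and 2797 CPM at 24 hr, and *fok* at 2473, 1667 and 1752 CPM, against 4539 and 4211 CPM, with no overlap between the times. Of 3056 genes, 4.61% were called lower at 48 hr and 3 members were among them. The choice used high levels in the 24 hr libraries, so nothing is read from the calls of these members. The log2 fold change was −2.01 ± 0.32 for *CG10467*, −1.45 ± 0.22 for *fok* and −2.21 ± 0.52 for *CG17109* (SE, edgeR adjusted p = 0.00443, 0.00341 and 0.0320). The value of *PPO1* was −0.78 ± 0.21, a description only, since *PPO1* and *PPO2* set the class. Without 24 hr replicate 2 none of the 3 was called, with adjusted p-values of 0.102, 0.0925 and 0.234, and *CG17109* was also lost without 48 hr replicate 2 (adjusted p = 0.115) or 24 hr replicate 3 (adjusted p = 0.0682). Without either 24 hr library that group is 1 library, which is assumed to vary like the 48 hr libraries. Lamellocyte markers summed to 7946 to 10871 CPM in the PPO-positive cells at 48 hr and to 98.7 to 127 CPM in those at 24 hr, and their part in the lower levels was not tested.

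The genes whose pattern was most like that of a member were found by Pearson's r over 121 sums of a library and a cluster (11 libraries, 7479 genes, log2(CPM + 1) after removing each library's mean). For *fok* they were *CG9119* (0.83), *Pde1c* (0.82) and *mthl10* (0.82), and for *CG9119* they were *Atox1* (0.84), *Pde1c* (0.84) and *fok* (0.83). *CG10467* was closest to its overlapping neighbor *CG10469* (0.79), *Atox1* (0.78) and *CG32335* (0.78), *Gip* to *CG10469* (0.80), *CG15343* (0.77) and *Atox1* (0.75), and *CG10602* to *PPO1* (0.73), *CG32335* (0.71) and *Atox1* (0.70). For *CG17109* the closest were *CG5418* (0.76), *MtnB* (0.74) and *Men* (0.74). *Atox1*, which encodes a copper chaperone, thus stood among the 3 nearest genes of 4 of the 6 members. The sums share libraries and depth, and the crystal cell clusters decide most of the values.

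Aldose 1-epimerases such as that of *CG10467* feed galactose into the Leloir pathway of galactose use, of which *Galk*, *Galt* and *UGP* are described. None of these 3 genes was called in PPO-positive against other cells at 48 hr, where 9.99% of genes were, with log2 differences of 0.48 for *Galt*, 0.11 for *Galk* and −0.46 for *UGP*. For wounding none of the 3 was called in other hemocytes, nor were *Galt* and *UGP* in crystal cell clusters, where *Galk* did not pass the filter on low counts. Over all hemocytes all 3 were called at 48 hr against 24 hr, where 35.5% of genes were: *Galt* (−1.11) and *Galk* (−0.73) were lower and *UGP* (0.60) was higher.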

How the data were processed

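Larval hemocytes of 14 libraries were measured by single-cell RNA-seq. The tables the authors deposited hold raw UMI counts. Per the paper's methods, Cell Ranger (10X Chromium) and bcbio-nextgen with RapMap and umis (inDrops) counted against FlyBase, while for Drop-seq reads were aligned with STAR within Drop-seq tools to an earlier Ensembl release. The authors kept inDrops barcodes with at least 100 UMIs, 100 genes and a novelty score of at least 0.85 (1 library with at least 650 genes), applied no such score to 10X, merged 11 libraries and clustered them with Seurat and Harmony. The deposited cluster numbers gave CC1 and CC2, and the merged counts of the members and prophenoloxidases equaled those of the 10X and inDrops matrices in every cell (0 cells differed).

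Here UMIs were summed per library and class. A library entered with at least 10 cells of the class. Drop-seq tables and PPO-rich barcodes were cut at 500 UMIs, 200 genes and 30% mitochondrial UMIs. Sums were compared with edgeR 4.0.16 (quasi-likelihood, TMM, its filter on low counts, Benjamini-Hochberg adjustment, a call at adjusted p under 0.05) in R 4.3.3, with DESeq2 1.42.0 as an alternative, and the procedure was tested on simulated data. SE is the log2 fold change over the square root of the F statistic, and 95% intervals are 1.96 SE to each side. Tables were made with Python 3.11.15, pandas 2.3.3, numpy 2.4.6 and scipy 1.17.1. The merged table holds 10392 genes and 623998 to 17452765 UMIs per library. Intervals and floors of 3 counts cover counting error only. No doublet caller was run.

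All members are named, with *PPO1*, *PPO2*, Leloir pathway genes (1 of the list is not reported here) and the 3 genes most like each member among those with at least 200 UMIs. Members and lists were chosen with earlier results of these data known, and PPO-rich barcodes, the 5% limit, the novelty setting, the comparison outside the merged table, fits of 1 technology and classes cut on prophenoloxidase UMIs within clusters, other hemocytes or both wasp times were added after seeing the data. Same-numbered wounded and unwounded libraries deviated from their group means together (correlations of 0.24 and 0.43 in crystal cell clusters, 0.41 and 0.61 in other hemocytes and 0.357 and 0.364 in PPO-rich barcodes, taken within a technology, where both pairs share 1 value), so the replicate number served as a block. The 48 hr and 24 hr libraries showed no such pairing. An inDrops table with further indices that no label names and the protein relatives were not analysed here.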

Additional observations from a re-analysis of the deposited data

Results flagged for a closer look

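The level of *fok* outside the crystal cell clusters in unwounded replicate 1, at 180.2 CPM, stood apart from the other unwounded libraries (group median 24.9 CPM). The gap to the nearest library was 0.838 of the whole range, over the limit of Dixon's test for 4 libraries, and 36 groups were examined, of which chance sets about 1 in 20 apart. Of its 201 UMIs there, 162 were in 2 cells with a median of 302.5 prophenoloxidase UMIs.

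UMIs of the 6 genes in barcodes outside the merged table were a signal in data that the deposited clusters do not cover. They made up 89.99% of the members' UMIs in wounded replicate 3, 83.8% in wounded replicate 4, 93.4% in unwounded replicate 3 and 83.5% in unwounded replicate 4, all inDrops libraries, against at most 1.17% in the 10X libraries. Of all barcodes, 1054 of 2836, 2567 of 5462, 892 of 2935 and 2458 of 2950 were outside in the inDrops libraries, in the same order. Comparisons of crystal cell clusters between technologies, and of wounding in the inDrops libraries, rest on the remaining UMIs unless PPO-rich barcodes are used.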

How the results depend on the processing

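The 6 calls in PPO-positive cells at 48 hr kept their direction and stayed called in all 10 alternatives. For wounding in crystal cell clusters 2 genes were called, and 27 without the filter on low counts, 31 with the replicate block, 1 in CC2 only, 0 in 10X libraries only, 9 in inDrops libraries only, 31 with the block over PPO-rich barcodes, and at a 5% prophenoloxidase limit 0 without and 33 with the block. In other hemocytes the count was 27, and 67 with DESeq2, 15 without the filter, 177 with the replicate block, 0 in 10X libraries only, 17 in inDrops libraries only and 105 with the block in cells without a prophenoloxidase UMI. For wasp inf. 24 hr over unwounded it was 113, and 202 with DESeq2, 512 without the filter and 9 in cells with at least 3 prophenoloxidase UMIs, where replicate 2 is the one wasp library and is assumed to vary like the unwounded ones. For 48 hr over 24 hr it was 2817, and 252 in PPO-positive cells, a smaller set of cells. For PPO-positive cells at 48 hr it was 770, and 444 with no replicate block and 283 with a limit of 2 UMIs. Between technologies it was 863, and 1304 without the filter, 199 at a novelty score of at least 0.85 and 521 at the 5% limit. For the difference of wounding effects it was 0, and 3 with DESeq2 and 1 without the filter.

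Directions that reversed, none of them a call after the reversal, were these (log2). For wounding in crystal cells, *CG10602* was at 0.11 in 10X libraries, 0.23 over PPO-rich barcodes, 0.26 with the block there, and 0.31 and 0.36 at the 5% limit without and with the block. *Gip* was at −0.062 in 10X libraries, and *CG9119* and *fok* at −0.33 and −0.31 in inDrops libraries. In other hemocytes of 10X libraries *CG10602*, *CG9119* and *fok* were at −0.0074, −0.23 and −0.59. For wasp inf. 24 hr, the same cells, again with 1 wasp library, gave 0.40 for *CG10467*, 0.43 for *CG10602*, 1.02 for *Gip* and 0.052 for *CG9119*. For 48 hr over 24 hr, *CG9119* was at −0.55 in PPO-positive cells and *fok* at 0.018 with the replicate block, where the numbers do not pair the libraries. Between technologies *CG10602* was at −0.66 over PPO-rich barcodes, −0.62 at a score of at least 0.85 and −0.75 at the 5% limit, *CG17109* at −0.41 and −0.55, and at the 5% limit *Gip* at −0.13 and *CG9119* at −0.044. The cause of these changes was not tested.

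Leaving out 1 library at a time gave 0 to 7 called genes for wounding in crystal cells, 2 to 36 in other hemocytes, 20 to 168 for wasp inf. 24 hr (2 libraries, so that leaving out either leaves 1), 1370 to 3668 for 48 hr over 24 hr, 539 to 653 for PPO-positive cells, 566 to 941 between technologies and 0 to 1 for the difference of wounding effects. Log2 values that crossed 0 lay between −0.14 and 0.37 (*Gip*) and −0.00051 and 0.52 (*fok*) for wounding in crystal cells, −0.15 and 2.67 (*CG9119*) and −0.68 and 1.79 (*fok*) in other hemocytes, −1.80 and 1.37 (*CG17109*) and −2.97 and 0.44 (*Gip*) for wasp inf. 24 hr, and −1.48 and 0.23 (*CG10467*), −0.35 and 2.33 (*CG9119*) and −0.81 and 0.87 (*fok*) for 48 hr over 24 hr. In the crystal cell clusters of inDrops libraries the members rest on 0 to 174 UMIs a library, which limits what can be seen there.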
